A study of Mus musculus with 22 samples.

Results

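Islets of 11 male mice on a background the labels call Mixed were compared by genotype: 6 carried the S64F change of MAFA on 1 allele (Het, heterozygous) and 5 were wild type (WT). They were chosen by their column names and make up 11 of the 22 libraries of the series. The other 11, 5 WT and 6 Het, are on the C57 background and serve here to estimate the spread and to test where the Het difference depends on background. Each library was made from poly(A) RNA of the islets of 1 mouse aged 5.5 weeks (the column names give 5 to 6 weeks). The strains that make up the Mixed background, and how the allele was made and bred, are not given in the sources used here. No treatment is listed for any group, and all mice are male. Values are TPM, a transcript abundance unit that divides counts by transcript length and in which every library sums to 1000000, so a rise in some transcripts lowers the values of others. Depth is not recorded in this unit.

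MAFA is a basic leucine zipper transcription factor of mature beta cells, the insulin-secreting cells of the islet. It binds MAF recognition elements in the insulin gene and in genes for glucose sensing and hormone release, and it becomes abundant as beta cells mature. The changed residue lies in the transactivation domain, close to sites whose phosphorylation is tied to MAFA turnover, and the same change in people is known from families with diabetes or insulin-producing tumours.

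The 2 genotypes separated across the whole transcriptome. Pearson correlations of log2(TPM + 1) across genes, which are not independent replicates, were 0.955 to 0.981 for the 10 WT pairs and 0.967 to 0.982 for the 15 Het pairs. The 30 pairs of a WT with a Het library gave 0.907 to 0.954, and 0 pairs were identical. A principal component analysis of the 11 libraries put 48.3% of their variance on its first axis, with WT between -50.8 and -25.0 and Het between 22.98 and 41.5. On the second, with 9.79%, WT replicate 4 stood at 29.5 and WT replicate 5 at -33.8, with every Het library between -4.56 and 7.27. Library numbers run through the groups in order, so library order and genotype cannot be told apart.

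Mafa mRNA (ENSMUSG00000047591) was far lower in Het than in WT islets. The 5 WT libraries held 775, 534, 519.8, 439.6 and 719.7 TPM, and the 6 Het libraries 162, 157, 95.2, 199, 173 and 123 TPM. Every Het value lay below every WT value, and the Het mean was 25.4% of the WT mean. The log2 difference was -1.98 (SE 0.18, adjusted p = 3.44e-08 by limma with Benjamini-Hochberg adjustment over all genes tested). A two-sided exact permutation test over the 11 mice gave p = 0.00216, the smallest that 462 splits can give. TPM does not separate the alleles, and Mafa mRNA does not check the genotype labels.

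The most abundant transcripts shifted from insulin towards the other islet hormones. Ins1 and Ins2, the mouse insulin genes, together took 39.6%, 36.4%, 41.5%, 37.6% and 44.2% of all TPM in WT islets. In Het islets they took 21.5% at the lowest, 27.8% at the median and 30.8% at the highest, and the groups did not overlap (exact permutation test, two-sided, p = 0.00216, 0.00505 adjusted over 7 shares). Gcg, the glucagon precursor, took 1.90% ± 0.484 (SD, n = 5) in WT and 8.52% ± 1.46 (n = 6) in Het, again without overlap and with the same exact p values. Sst, the somatostatin precursor of delta cells, took 1.02% ± 0.321 and 2.54% ± 0.605 (adjusted exact p = 0.0114), and Pyy, which encodes peptide YY, 0.476% ± 0.126 and 0.939% ± 0.310 (adjusted exact p = 0.0212). Ppy, the pancreatic polypeptide precursor, took 1.64% ± 0.594 and 2.68% ± 1.22, and Iapp, the amylin precursor, 2.94% ± 0.431 and 3.51% ± 0.534. Ppy and Iapp did not pass (both adjusted exact p = 0.108). In bulk islets, fewer cells of a type and less RNA per cell cannot be told apart.

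Of 16756 genes with at least 1 TPM in at least 5 of the 22 libraries, 44.1% (7395) differed between Het and WT in Mixed islets at an adjusted p under 0.05. Of the genes tested, 30.7% (5137) were higher and 13.5% (2258) lower in Het. Most of these differences were small, with a median size of 0.50 on the log2 scale. At least 1 log2 unit was reached by 1025 called genes (6.12% of those tested), 532 higher and 493 lower, and at least 2 by 114, 61 higher and 53 lower. Values did not overlap between the groups for 3960 genes (23.6%), 2995 higher and 965 lower. The split between higher and lower calls depended on the scaling. The median difference of all genes was 0.10 as deposited and -0.01 after median-of-ratios scaling, which gave 3582 higher and 3745 lower calls. A small difference is therefore read against a median of 0.10.

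**Figure D1:**
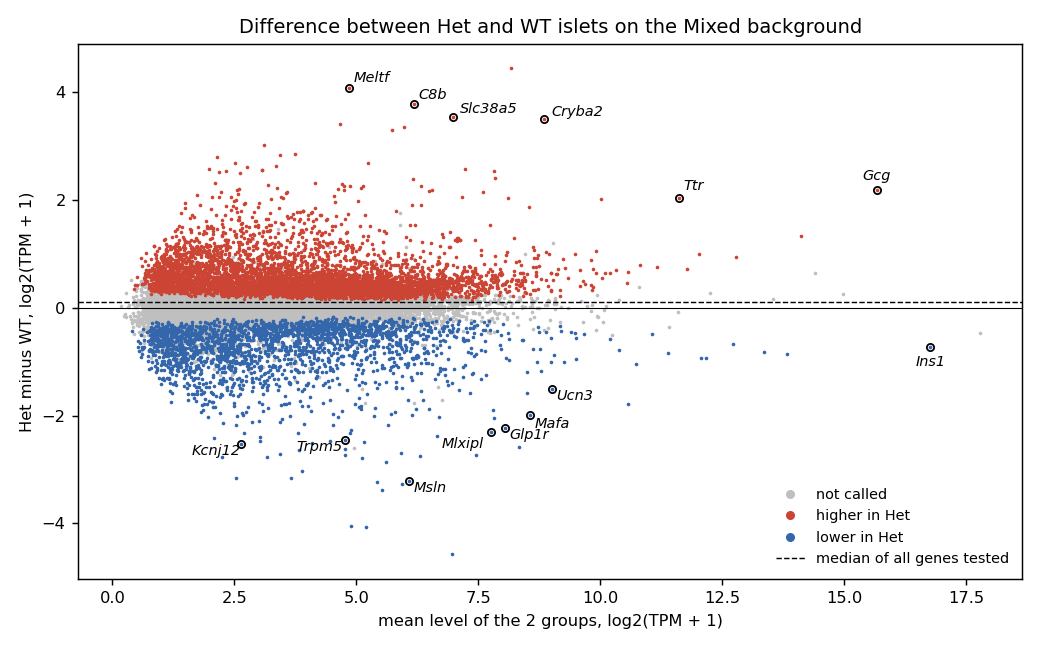
Log2 difference between Het and WT islets (y axis, Het minus WT, log2(TPM + 1)) against mean level (x axis) for the 16756 genes tested on the Mixed background, red where higher and blue where lower in Het at adjusted p under 0.05. Calls lie on both sides at every level, the dashed median of all genes lies at 0.10, and Meltf at 4.08 and Msln at -3.22 are among the labelled extremes.

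The 12 largest rises among genes with established symbols and non-overlapping groups were led by Meltf, C8b, Slc38a5 and Cryba2. Meltf, which encodes melanotransferrin, an iron-binding protein anchored to the cell membrane, had 2.23, 0.801, 2.67, 2.798 and 2.77 TPM in WT and 49.4, 53.8, 49.8, 66.9, 38.1 and 60.5 TPM in Het islets. Every Het library stood far above every WT library, and the log2 difference was 4.08 (SE 0.16, adjusted p = 2.93e-13). C8b, the beta chain of complement component C8, had 16.4, 7.795, 8.74, 5.25 and 7.07 TPM in WT and 125, 115, 123, 228, 127 and 87.8 TPM in Het islets (3.78, adjusted p = 3.48e-10). WT replicate 1 was the highest of WT and Het replicate 4 the highest of Het, and the groups stayed apart. Slc38a5, a sodium-coupled transporter of neutral amino acids that alpha cells can express, had 15.3, 21.1, 14.2, 18.2 and 26.6 TPM in WT and 305, 249.9, 183, 179, 250.2 and 214 TPM in Het (3.53, adjusted p = 9.56e-11). Cryba2, a member of the beta-crystallin family also found in endocrine cells, had 79.5, 66.1, 49.2, 76.6 and 91.7 TPM in WT and 976, 1112, 503, 946, 929 and 624.7 TPM in Het (3.51, adjusted p = 1.04e-10). Neither gene overlapped between the groups, with Het replicates 3 and 6 the lowest of the Het libraries for Cryba2.

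Among the other 8 of these rises, Oxtr, the oxytocin receptor, had 10.6, 13.1, 7.34, 6.86 and 8.39 TPM in WT and in Het lowest 46.4, median 66.2, highest 72.7 TPM (2.68). Pappa2, a metalloprotease that cleaves binding proteins of insulin-like growth factors, had 55.6, 43.3, 23.05, 50.3 and 34.3 TPM in WT and in Het lowest 117, median 253, highest 378 TPM (2.58). Synpr, a membrane protein of synaptic vesicles, had 2.72, 1.37, 2.09, 1.396 and 1.57 TPM in WT and in Het lowest 10.6, median 16.5, highest 23.02 TPM (2.63). All 3 were separate between the groups, as the rule required. The small GTPases Rerg (3.01) and Rasd2 (2.61) rose from means of 0.874 ± 0.458 and 0.848 ± 0.324 TPM (SD, n = 5) to 14.4 ± 4.93 and 10.6 ± 3.71 TPM (n = 6). Igfbpl1, which resembles those binding proteins, was under 0.03 TPM in every WT library and in Het lowest 2.26, median 7.46, highest 10.4 TPM. Wdr72, a WD-repeat protein, was under 0.1 TPM in every WT library and in Het lowest 1.33, median 5.75, highest 10.7 TPM. Ear2, a ribonuclease of eosinophils and macrophages from a family of close paralogs, had 0, 0.0579, 0, 0 and 0.123 TPM in WT and 2.72, 4.95, 11.3, 3.07, 32.4 and 1.399 TPM in Het, so its size rests on uneven Het libraries.

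The 12 largest falls by the same rule were led by Msln. Msln, which encodes mesothelin, a membrane-anchored glycoprotein, had 72.1, 127, 112, 147 and 142 TPM in WT and 14.1, 14.8, 23.4, 15.6, 7.82 and 3.61 TPM in Het islets (-3.22, SE 0.34, adjusted p = 2.17e-07). All Het values were under 24 TPM and all WT values above 72 TPM. Glp1r, the receptor for the incretin GLP-1, had 366, 526, 411, 429.7 and 444 TPM in WT and in Het lowest 80.1, median 90.5, highest 109 TPM (-2.24, adjusted p = 1.07e-10). Gcgr, the glucagon receptor, had 68.8, 79.4, 95.9, 80.9 and 77.6 TPM in WT and in Het lowest 11.7, median 17.2, highest 27.3 TPM (-2.18, adjusted p = 5.93e-09). Both receptors were tightly grouped within each genotype and far apart between them. Mlxipl, which encodes the glucose-responsive transcription factor ChREBP, had 326, 339, 381, 454 and 289 TPM in WT and in Het lowest 55.01, median 73.04, highest 83.6 TPM (-2.295). Th, tyrosine hydroxylase, the first enzyme of catecholamine synthesis, had 22.8, 45.8, 78.1, 43.96 and 53.3 TPM in WT and in Het lowest 6.93, median 8.12, highest 13.2 TPM (-2.26). Trpm5, a calcium-activated cation channel of taste and beta cells, had 36.5, 37.3, 65.6, 46.3 and 38.99 TPM in WT and 5.92, 6.55, 4.91, 15.5, 6.697 and 6.52 TPM in Het (-2.46). Het replicate 4 was the highest Het library for Trpm5 and still under the lowest WT value.

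Kcnj12, an inward rectifier potassium channel, fell to under 2 TPM in every Het library, from 10.4, 14.4, 10.2, 5.503 and 7.27 TPM in WT to 0.404, 0.920, 0.781, 1.54, 0.442 and 0.620 TPM (-2.53). Ckb, brain-type creatine kinase, had 323, 297, 387, 529.7 and 255 TPM in WT and 63.5, 129, 45.98, 64.6, 117 and 121 TPM in Het (-2.04). The serine protease gene Tmprss4 fell with wide spread among Het mice, from 47.6, 40.97, 40.3, 47.2 and 54.03 TPM to 3.11, 8.72, 23.6, 3.84, 15.1 and 7.67 TPM (-2.32). Het replicate 3 was closest to WT for Tmprss4, and Het replicates 1, 3 and 4 were the lowest for Ckb. Slc14a2, a urea transporter (-2.39), Cib3, a calcium-binding protein (-2.096), and Ky (-2.02) completed the 12 falls.

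**Figure D2:**
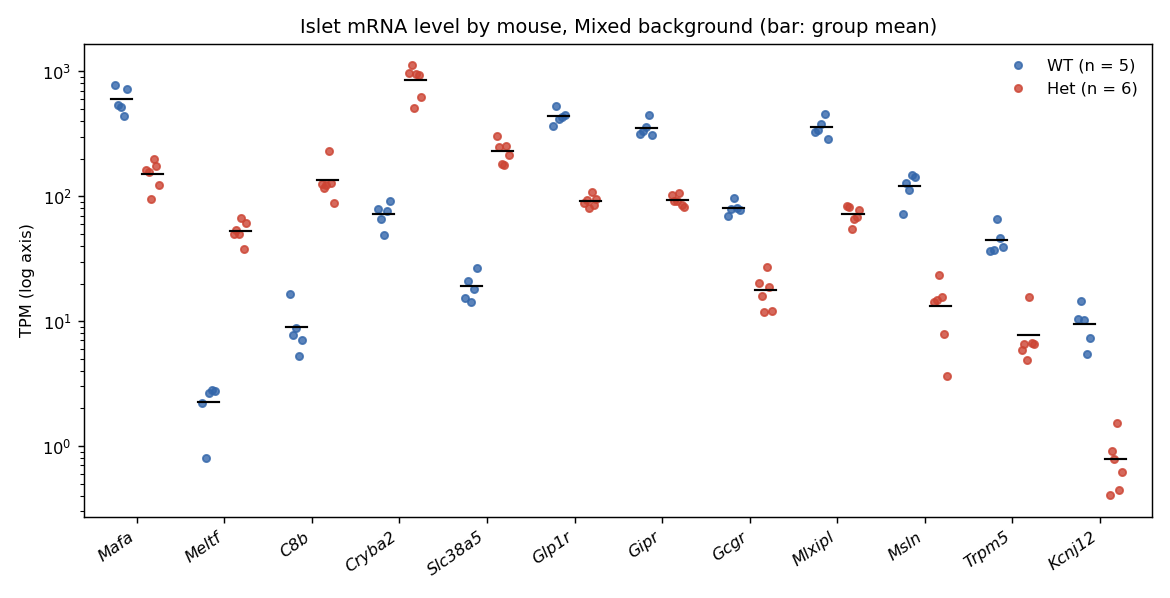
TPM on a log axis for 12 genes in the 5 Mixed WT (blue) and 6 Mixed Het (red) libraries, with 1 point per mouse and a bar at each group mean. The colours do not overlap for any of these 12 genes, which the naming rule required of all but Mafa and Gipr. Kcnj12 lies under 2 TPM in all 6 Het mice.

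Promoter sequence is shown for 3 of these 24 genes because they hold letters that MAF proteins can bind and lie at the top of each direction. The 250 bases before the transcription start were taken from RefSeq on build GRCm38.p6, which differs from the mm39 build of the submitters' processing notes, so only names join them to the table. The core TGCTGAC of the MAF recognition element was searched on both strands, and capitals mark it or its reverse complement GTCAGCA. Of the 24 genes, 9 risers and 9 fallers had a window.
Meltf, chr16:31878560-31878809, plus strand, rose: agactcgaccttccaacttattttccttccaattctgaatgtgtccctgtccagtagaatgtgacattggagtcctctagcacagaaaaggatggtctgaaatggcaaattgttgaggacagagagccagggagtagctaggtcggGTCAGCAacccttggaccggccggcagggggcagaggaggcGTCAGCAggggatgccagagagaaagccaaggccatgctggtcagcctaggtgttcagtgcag
C8b, chr4:104766067-104766316, plus strand, rose: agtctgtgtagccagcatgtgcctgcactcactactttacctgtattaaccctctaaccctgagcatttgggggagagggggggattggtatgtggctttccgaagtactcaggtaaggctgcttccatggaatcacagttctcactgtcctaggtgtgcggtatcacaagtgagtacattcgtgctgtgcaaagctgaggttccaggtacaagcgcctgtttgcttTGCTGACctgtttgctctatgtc
Kcnj12, chr11:61065554-61065803, plus strand, fell: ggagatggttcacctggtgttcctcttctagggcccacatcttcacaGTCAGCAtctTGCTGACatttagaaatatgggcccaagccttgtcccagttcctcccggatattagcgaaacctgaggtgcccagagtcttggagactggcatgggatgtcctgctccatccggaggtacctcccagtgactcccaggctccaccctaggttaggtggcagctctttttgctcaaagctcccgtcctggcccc

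Meltf and Kcnj12 hold the core at 2 places each and C8b at 1, and the other 7 risers and 8 fallers with a window hold none. Among all 32851 windows, 3.81% hold the 7 letters, and among the windows of genes tested 3.07%. The share was 2.94% for genes higher in Het and 3.56% for genes lower in Het. A match is a description of these letters and not a bound site.

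Markers of alpha and delta cells rose and those of beta cells fell. On lists of marker genes, 11 of 12 tested alpha markers were higher and 0 lower, with a median difference of 1.72, and 7 of 9 delta markers were higher and 0 lower (median 1.32). Of 12 beta markers 0 were higher and 8 lower (median -0.55). The shares called were 91.7% of alpha, 77.8% of delta and 66.7% of beta markers. Of all genes 44.1% were called, 30.7% higher and 13.5% lower. Irx1, an alpha cell transcription factor, had 12.4, 12.98, 8.19, 9.23 and 12.7 TPM in WT and in Het lowest 44.5, median 55.8, highest 66.2 TPM (2.23). Gc, the vitamin D binding protein made by alpha cells (2.16), and Ttr, transthyretin (2.03), rose with Gcg (2.18). Hhex, which maintains delta cells, had 6.52, 10.5, 5.27, 7.36 and 6.19 TPM in WT and in Het lowest 10.9, median 21.4, highest 26.2 TPM (1.398), and Rbp4, a retinol carrier of delta cells, rose by 1.88. Het and WT did not overlap for 11 of 12 alpha and 4 of 9 delta markers, beside 23.6% of all genes. Summed TPM of the alpha list was 17044 to 28885 in WT and 67400 to 109824 in Het, and of the beta list 404522 to 482408 in WT and 252795 to 344520.3 in Het. Gcg makes up most of the alpha sum, and Ins1 with Ins2 most of the beta sum, so these sums largely repeat the hormone shares. Of the PP and epsilon cell markers 3 of 5 rose (60.0% called), among them Etv1 (1.42) and Pyy (0.95).

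Markers of mesenchymal cells rose in most Het mice, with wide differences among them. Of 17 tested, 12 were higher and 0 lower (median 1.43), 70.6% called beside 44.1% of all genes. Col1a1, a chain of type I collagen, had 3.02, 9.83, 8.04, 10.2 and 8.08 TPM in WT and 56.6, 24.05, 15.1, 30.4, 94.8 and 41.2 TPM in Het (2.19, adjusted p = 7.74e-05). Het replicate 5 held the most and replicate 3 the least, and the groups did not overlap. Col3a1 rose by 1.73, Col1a2 by 1.64 and Col6a1 by 1.73. Summed TPM of all 18 mesenchymal markers was 278 to 404 in WT and 712, 500.4, 272, 512, 1139 and 574 in Het, so Het replicate 3 lay under every WT library. Immune markers rose in 7 and fell in 2 of 11 tested (81.8% called, median 0.50). Their sums were 141 to 187 TPM in WT and 203 to 405 TPM in Het. The macrophage genes Cd68 (0.81), Adgre1 (0.73) and C1qc (0.88) rose. The 2 that fell were Cd79a, a part of the B cell receptor (-1.43), and Fcer1g, a receptor chain of macrophages and other myeloid cells (-0.43). The Fcer1g call was lost without WT replicate 1 or 5 or Het replicate 3, 4 or 6, and with the acinar score as a covariate. Schwann cell markers were higher for 4 of 7 (57.1% called, median 0.57), and all overlapped between the groups. Their sums were low, 13.7 to 26.8 TPM in WT and 22.7 to 39.4 TPM in Het, and overlapped. Endothelial markers were higher for 1 of 12 and lower for 1 (16.7% called, median -0.02).

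Exocrine markers differed less evenly. Of 14 acinar markers 4 were higher and 0 lower (median 0.90), with sums of 265 to 1238 TPM in WT and 988 to 1727 TPM in Het. That is 28.6% called, all higher, near the 30.7% of all genes that were higher. The number called was 1 without WT replicate 4, the library with the lowest sum, 10 without WT replicate 3 and 8 without WT replicate 1. Of 12 ductal markers 9 were higher and 2 lower (median 0.68), among them Spp1, osteopontin (2.06), and Clu, clusterin (1.299), while Krt8, keratin 8, fell (-1.01). The share of ductal markers called was 91.7%, beside 44.1% of all genes. Their summed TPM overlapped and had the lower median in Het, 948 to 2124 (median 1816) in WT and 1319 to 1985 (median 1592) in Het. None of the marker genes in these cell type lists was at 0 in all 11 libraries.

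The mesenchymal level moved with genotype, and its part in the other differences was not tested. With the mean mesenchymal score of each library as a covariate, 4859 genes were called (3346 higher) instead of 7395. Of the calls as fitted, 4481 were kept in the same direction. With the acinar score instead, 5606 were called, with 5 higher ER, 2 lower immediate early and 3 lower exocytosis genes. The alpha list held 11 higher calls and the delta list 7 under either covariate. With the mesenchymal score, higher calls fell to 3 immune, 5 ductal, 2 acinar, 0 Schwann cell and 4 glucose sensing genes. Lower calls fell to 5 islet transcription factors, 2 exocytosis, 5 cholesterol, 3 interferon, 2 ER, 1 proliferation and 1 immediate early genes. Endothelial markers then had 0 higher and 4 lower, with a median of -0.50. Mesenchymal markers are left out because they make up the score. Besides Col3a1, which is in the score, 23 of the called genes named in the text lost their call with it: Aldh1a3, Bst2, Cacna1d, Ccl11, Cd68, Fosb, Gal, Gast, H2-Ab1, Hspa5, Irf1, Mmp2, Mt2, Myl7, Npy, Slc30a8, Snap25, Spp1, Srebf2, Stx1a, Tph1, Foxm1 and Mcm4.

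**Figure D3:**
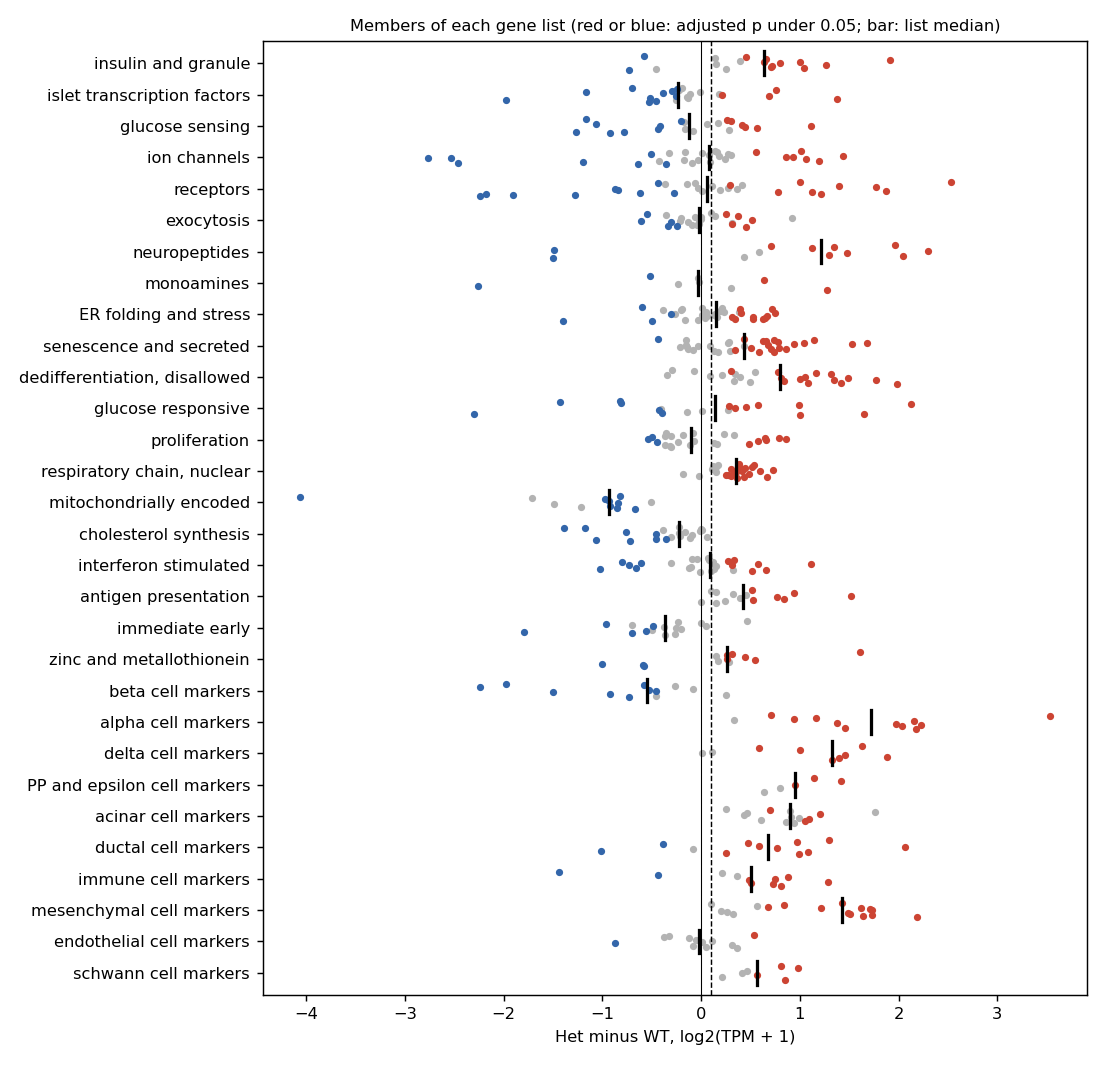
Log2 difference between Het and WT (x axis, Het minus WT, log2(TPM + 1)) for each tested member of 30 gene lists (rows), red or blue where adjusted p is under 0.05, with a bar at each list's median. The dashed line is the median of all genes tested, 0.10. Alpha, delta and mesenchymal markers lie mostly to the right, and mitochondrially encoded and beta cell genes to the left.

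Insulin mRNA fell while the processing and packing genes of the secretory granule rose. Ins1 had 137899, 124469, 143586, 136548 and 152526 TPM in WT and in Het lowest 70051, median 83851, highest 100396 TPM (-0.73, adjusted p = 0.00103). Het and WT values of Ins1 did not overlap. The Ins1 call was lost without a filter on low values (adjusted p = 0.756) and with quantile normalization (-0.35, adjusted p = 0.338). Quantile normalization sets values by rank within a library and made Ins2 equal in every library, so it cannot test the fall of the most abundant transcripts. Ins2 was lower in all 6 Het libraries than in any WT library, with a log2 difference of -0.46 that did not pass (adjusted p = 0.0773). The 2 genes are similar in sequence, and how the counting treated any reads they share is not known, so each value alone is uncertain. Iapp had a difference of 0.26 (adjusted p = 0.236). Of 17 tested genes of insulin and the granule, 10 were higher and 2 lower (median 0.64), 70.6% called beside 44.1% of all genes. Pcsk1, the convertase that cuts proinsulin, had 331, 290.5, 296, 274 and 345 TPM in WT and in Het lowest 600.0, median 619.7, highest 722 TPM (1.05, adjusted p = 4.09e-06). Pam, which amidates peptide ends, rose by 1.27, Cpe, the carboxypeptidase that trims cut prohormones, by 0.72, and the granins Chgb and Scg2 by 0.80 and 0.999. Vgf, a granule protein of the granin family, had 39.2, 23.03, 22.4, 32.2 and 39.6 TPM in WT and 153, 133, 101, 45.5, 165 and 165 TPM in Het (1.91), with Het replicate 4 nearest to WT. Slc30a8, the transporter that loads zinc into insulin granules, fell by 0.57 on the log2 scale, from 1414 ± 74.3 TPM to 953 ± 95.8 TPM. With the mesenchymal score as a covariate, Slc30a8 had -0.38 and did not pass (adjusted p = 0.144).

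Islet transcription factors were lower more often than higher. Of 22 tested, 4 were higher and 10 lower (median -0.24), and 3 and 15 after median-of-ratios scaling. As fitted, 63.6% were called, beside 44.1% of all genes. Prox1 (0.76) and Foxa2 (0.68), both regulators of endodermal organs, rose. Mnx1, needed for beta cell fate, had 32.2, 36.3, 26.8, 23.03 and 36.2 TPM in WT and in Het lowest 9.39, median 12.2, highest 20.2 TPM (-1.17, adjusted p = 7.96e-06). Pax6, a regulator of all islet endocrine cells, fell by 0.52 on the log2 scale without overlap. Pdx1 and Nkx6-1, which define the beta cell programme, fell (-0.53 and -0.46) and overlapped WT.

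The glucose transporter and some enzymes of glucose use fell. Other enzymes rose, among them Pkm and, of the malate and aspartate shuttle, Got1 and Mdh1. Of 20 genes of glucose sensing, 6 were higher and 8 lower (median -0.12), and 4 and 10 after median-of-ratios scaling. As fitted, 70.0% were called, beside 44.1% of all genes. Slc2a2, the glucose transporter GLUT2, had 418, 339, 281, 332 and 388 TPM in WT and 177, 159, 156, 277, 182 and 171 TPM in Het (-0.92, adjusted p = 4.38e-06). Het replicate 4 was the highest Het library, just under the lowest WT value. Pcx, pyruvate carboxylase, fell by 1.26, Ppp1r1a, a protein phosphatase inhibitor, by 1.17 and Pfkfb2, which makes the activator of phosphofructokinase, by 1.07 on the log2 scale, all without overlap. Me1, malic enzyme, rose by 1.12, Got1, aspartate aminotransferase, by 0.57, Mdh1, malate dehydrogenase, by 0.44 and Pkm, pyruvate kinase, by 0.41.

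Of 29 ion channels tested 7 were higher and 7 lower (median 0.08), 48.3% called and so near the 44.1% of all genes. Kcnj5, a potassium channel opened by G proteins, had 16.7, 14.6, 12.6, 6.78 and 18.2 TPM in WT and 2.51, 0.266, 9.34, 0.120, 0.438 and 0.0653 TPM in Het (-2.77, adjusted p = 1.39e-05). Het replicate 3 lay within the WT range, while 4 of the other Het libraries were under 1 TPM. Trpm2, a cation channel gated by ADP-ribose, fell by 1.19 and Cacna1d, an L-type calcium channel, by 0.63, while Kcnk16 (0.93) and Kcnk3 (1.43), background potassium channels, and Cacna1h, a T-type calcium channel (1.19), rose. Of 28 receptors tested 9 were higher and 9 lower (median 0.06, and -0.05 after median-of-ratios scaling), 64.3% called beside 44.1% of all genes. Gipr, the receptor for the other incretin, had 317, 331, 356, 448 and 309 TPM in WT and in Het lowest 82.6, median 91.6, highest 106 TPM (-1.903, adjusted p = 6.87e-09). Ffar1, a receptor for long-chain fatty acids, had 119, 102, 91.5, 74.8 and 103 TPM in WT and in Het lowest 35.3, median 38.2, highest 46.3 TPM (-1.27). With Glp1r and Gcgr, Gipr and Ffar1 were among 8 receptors lower in each of the 6 Het mice than in any WT mouse. Another 7 of the list were higher in each Het mouse than in any WT mouse. Of all genes tested, 23.6% did not overlap between the groups. Receptors that rose were Mc5r, for melanocortins (2.53), Sstr2, for somatostatin (1.87), Avpr1b, for vasopressin (1.77), and Gpr119, for lipid amides (1.21).

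Exocytosis genes showed 5 higher and 5 lower of 25 (median -0.02), 40.0% called and so near the share of all genes, and 3 and 10 after median-of-ratios scaling. Stx1a, a membrane SNARE protein, rose (0.46), and Snap25, its partner, fell (-0.34). Sytl4, granuphilin, which docks insulin granules, had 265, 238, 221, 226 and 251 TPM in WT and in Het lowest 139.9, median 151, highest 197 TPM (-0.61).

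Neuropeptides were mostly higher, 8 of 12 tested with 2 lower (median 1.21), but 5 of the 17 listed were too low to test. The share called was 83.3%, beside 44.1% of all genes. Ucn3, urocortin 3, a mark of mature beta cells, fell from 862, 791, 686, 572 and 865 TPM to 179, 264, 281, 412, 226 and 265 TPM (-1.502, adjusted p = 1.08e-07). Npy, neuropeptide Y, rose from 45.5, 138, 106, 97.1 and 71.9 TPM to 213, 237, 423, 784, 966 and 126 TPM (2.04), with Het replicate 6 inside the WT range. Edn3, endothelin 3, rose by 1.96 without overlap, and Gal, galanin, by 1.48. Gast, gastrin, of the embryonic pancreas, had 1.12, 1.49, 2.11, 3.31 and 1.82 TPM in WT and 3.86, 6.38, 2.77, 2.54, 23.1 and 12.3 TPM in Het (1.34), highest in Het replicates 5 and 6. With the mesenchymal score as a covariate, 2 of these genes were higher and 2 lower. Of 8 monoamine genes 2 rose and 2 fell, 50.0% called beside 44.1% of all genes. Tph1, which starts serotonin synthesis, was at most 0.0315 TPM in WT and 4.92, 5.29, 0.0129, 0.946, 1.98 and 0.00708 TPM in Het (1.27), so 2 Het libraries stayed at the WT level.

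Genes of ER folding and stress were called as often as genes at large. Of 34 tested, 11 were higher and 4 lower (median 0.15), a share of 44.1% that equals the 44.1% of all genes, and 7 and 6 after median-of-ratios scaling. Dnajc3, a co-chaperone, rose by 0.67, and the disulfide isomerases P4hb and Pdia6 by 0.65 and 0.62. Ern1, the sensor IRE1, rose by 0.74, without overlap. Ddit3, the stress transcription factor CHOP, had 170.0, 236, 264, 141 and 92.8 TPM in WT and 52.9, 52.2, 64.7, 94.2, 51.6 and 77.2 TPM in Het (-1.39, adjusted p = 2.80e-04), with WT replicate 5 inside the Het range. Hspa5, the main ER chaperone BiP, had 2284, 3212, 3542, 2117 and 1525 TPM in WT and in Het lowest 1521, median 1631, highest 2192 TPM (-0.49, adjusted p = 0.0352). Its call was lost without WT replicate 2 or 3 or without Het replicate 1, 2, 4 or 5. The ER list also held 3 lower calls, not 4, with the 11 Mixed libraries alone or without a filter on low values. Xbp1, a transcription factor of the ER stress response, fell by 0.31 on the log2 scale.

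Genes listed for senescence and the secretory proteins that go with it were higher for 18 of 33 and lower for 1 (median 0.44). That was 57.6% called, while of all genes 44.1% were called and 30.7% were higher. After median-of-ratios scaling 14 were higher and 4 lower. Cdkn1a, the cell cycle inhibitor p21, had 44.6, 45.3, 52.8, 55.4 and 24.1 TPM in WT and in Het lowest 65.2, median 71.7, highest 79.95 TPM (0.74, adjusted p = 4.07e-04). Cdkn2b, the inhibitor p15, had 10.8, 10.5, 11.8, 8.52 and 10.3 TPM in WT and in Het lowest 11.9, median 16.4, highest 20.3 TPM (0.59), while Cdkn2a, the most used mark of senescence, was near 1 TPM in both (0.18, adjusted p = 0.306). Plat, tissue plasminogen activator, had 4.81, 4.85, 4.22, 5.75 and 5.01 TPM in WT and in Het lowest 15.03, median 16.4, highest 27.6 TPM (1.68). The groups did not overlap for Cdkn1a, Cdkn2b or Plat. Mmp2 (1.52) and Timp2 (1.15), genes of matrix turnover, rose too, highest in Het replicate 5 as were the mesenchymal markers. With the mesenchymal score as a covariate, 9 were higher and 1 lower.

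Genes of progenitors and genes that mature beta cells keep low were higher for 14 of 24 and lower for 0 (median 0.80). That was 58.3% called, beside 44.1% of all genes. The counts were 11 and 0 after median-of-ratios scaling, and 8 and 2 with the mesenchymal score as a covariate. Neurog3, the factor that starts endocrine fate in the embryo, had 4.18, 4.94, 2.44, 3.95 and 4.03 TPM in WT and in Het lowest 8.89, median 12.3, highest 15.02 TPM (1.42, adjusted p = 5.62e-06). Fev, a factor of endocrine precursors, had 8.74, 10.9, 6.06, 6.21 and 7.31 TPM in WT and in Het lowest 16.3, median 24.8, highest 35.9 TPM (1.49). Sox9 (1.08) and Serpina7 (1.77) rose without overlap as well. Aldh1a3, an enzyme of retinoic acid synthesis used as a mark of beta cells that lose identity, had 1.61, 0.559, 0.303, 0.701 and 1.04 TPM in WT and 5.196, 8.92, 4.11, 0.412, 16.05 and 15.7 TPM in Het (1.98, adjusted p = 5.76e-04). Het replicate 4 sat within the WT range and Het replicates 5 and 6 were highest.

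Glucose-responsive genes split, 8 of 18 higher and 6 lower, 77.8% called beside 44.1% of all genes. Txnip, a thioredoxin-binding protein induced by glucose, had 641, 399.9, 353, 469 and 525 TPM in WT and in Het lowest 703, median 994, highest 1127 TPM (1.002), and Arrdc4, its relative, rose by 1.65. Fbp1, a gluconeogenic enzyme, rose from 3.33 ± 0.531 TPM to 18.1 ± 4.14 TPM (2.13). Mlxipl, whose protein activates Txnip and Arrdc4, fell as given above. Nr1d1, a circadian repressor, fell by 1.43, and Bhlhe40 by 0.82, on the log2 scale. Of 24 proliferation genes 6 were higher and 3 lower, 37.5% called and so below the 44.1% of all genes. Mcm5 (0.86), Mcm6 (0.79) and Mcm7 (0.65), parts of the replicative helicase, rose, while Mcm4, of the same helicase, fell (-0.54, adjusted p = 0.0456). Cdk4, a cyclin-dependent kinase of beta cell growth (-0.45), and Foxm1, a transcription factor of dividing cells (-0.50), fell, and Mki67 and Top2a, marks of dividing cells, had -0.31 and -0.31 and did not pass. The Mcm4 call was lost without WT replicate 2, 3 or 4 or without any Het replicate other than 3, and the Foxm1 call without WT replicate 4 or 5 or Het replicate 4. Neither passed with the acinar or the mesenchymal score as a covariate. The proliferation list held 2 lower calls with the 11 Mixed libraries alone or with sample weights, and 1 without a filter on low values.

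Nuclear and mitochondrial genes of the respiratory chain went opposite ways. Of 27 tested nuclear genes 20 were higher and 0 lower (median 0.36), or 14 and 1 after median-of-ratios scaling. As fitted, 74.1% were called, beside 44.1% of all genes. Atp5b, a subunit of ATP synthase, had 201, 210.4, 183, 162 and 212 TPM in WT and in Het lowest 295, median 310.2, highest 318 TPM (0.67), and Cycs, cytochrome c, rose by 0.73. Of 12 mitochondrially encoded genes 0 were higher and 8 lower (median -0.93), 66.7% called. Together, genes encoded in the mitochondrion took 5.52%, 4.50%, 6.03%, 9.76% and 4.37% of TPM in WT, and in Het 2.80% at the lowest, 3.17% at the median and 4.06% at the highest (exact p = 0.00216, 0.00505 adjusted). mt-Co1 fell by 0.85 on the log2 scale, and mt-Nd1 by 0.67, the latter past the threshold only with WT replicate 4, the highest library, included (-0.67, and -0.48 with adjusted p = 0.0576 without it). These genes have copies in the nuclear genome that can share their reads.

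Cholesterol synthesis and uptake genes were lower for 8 of 21 and higher for 0 (median -0.23), and lower for 16 after median-of-ratios scaling. As fitted, 38.1% were called, all lower, while of all genes 44.1% were called and 13.5% were lower. Insig1, which holds the sterol-sensing complex in the ER, had 159, 166, 162, 144 and 99.9 TPM in WT and in Het lowest 54.9, median 61.1, highest 71.3 TPM (-1.18, adjusted p = 3.87e-06). Msmo1, a sterol demethylating enzyme, had 31.7, 40.5, 32.1, 22.9 and 25.5 TPM in WT and in Het lowest 14.02, median 17.2, highest 20.7 TPM (-0.76, adjusted p = 5.25e-04). Neither overlapped between the groups. Srebf2, the transcription factor of sterol synthesis genes, fell by 0.35 on the log2 scale with overlap.

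Immediate early genes were lower for 5 of 16 and higher for 0 (median -0.37). The share called was 31.2%, all lower, while of all genes 44.1% were called and 13.5% were lower. Fosb had 2207, 3285, 3162, 2664 and 785 TPM in WT and 877, 517, 653, 722, 480.1 and 584 TPM in Het (-1.79, adjusted p = 6.54e-04), with WT replicate 5 inside the Het range. The number lower ranged with the library left out, from 1 without WT replicate 2, WT replicate 3 or Het replicate 6 and 2 without WT replicate 1 or Het replicate 5, to 8 without WT replicate 5. Interferon genes had 7 higher and 5 lower of 26 (3 and 6 after median-of-ratios scaling), 46.2% called beside 44.1% of all genes. The higher calls fell to 2 with either the acinar or the mesenchymal score as a covariate. The list held Ifih1, an RNA sensor (1.11), and Bst2 (0.57), both higher, and Irf1 (-1.03) and Stat2 (-0.66), both lower. Antigen presentation genes had 6 higher and 0 lower of 14 (42.9% called), all overlapping, with Cd74, the invariant chain (0.77), and H2-Ab1 (0.84) higher, and 2 with the mesenchymal score as a covariate. Of the zinc and metallothionein list 6 of 12 were higher and 3 lower (3 and 3 after median-of-ratios scaling, 3 and 0 with the mesenchymal score as a covariate), Mt3 (1.61) among the first and Mt2 (-1.01), a metal-binding protein, among the second. As fitted, 75.0% of that list was called.

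The Het difference depended on background for 7.36% (1233) of the genes tested, 774 with a more positive and 459 with a more negative difference in Mixed than in C57 islets. Of these, 962 were also called in Mixed. In C57 islets Mafa itself differed by -1.91, close to Mixed, with an interaction of -0.07 (adjusted p = 0.886). Glp1r fell by 2.24 in Mixed and had a difference of -0.89 in C57 (interaction -1.35, adjusted p = 5.12e-04). Slc2a2 differed by -0.92 in Mixed and 0.09 in C57 (interaction -1.01, adjusted p = 0.0027), and Ucn3 by -1.502 and -0.32 (interaction -1.18, adjusted p = 0.00342). Txnip and Arrdc4 went 1.002 and 1.65 in Mixed and -0.52 and -0.16 in C57. Cryba2 (3.51 and 1.93) and Rerg (3.01 and 1.11) rose further in Mixed, and Nrcam, a cell adhesion molecule (2.05 and 3.38), and Arhgap36 (2.16 and 3.58) less. Ttc28, Mreg and Per2, a circadian gene, fell in Mixed (-1.33, -1.44 and -1.37) with C57 differences of 0.08, 0.20 and -0.02. Of the mesenchymal markers 10 of 17 and of the immune markers 6 of 11 had a more positive interaction, led by Col1a1 (2.19 in Mixed, 0.15 in C57).

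The number of genes with an interaction was 24 with the mesenchymal score as a covariate. Leaving out 1 mouse gave 771 (without Het replicate 5) to 1688 (without WT replicate 5), with 842 without Het replicate 2 and 895 without WT replicate 3, and the cause of these shifts was not tested.

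**Figure D4:**
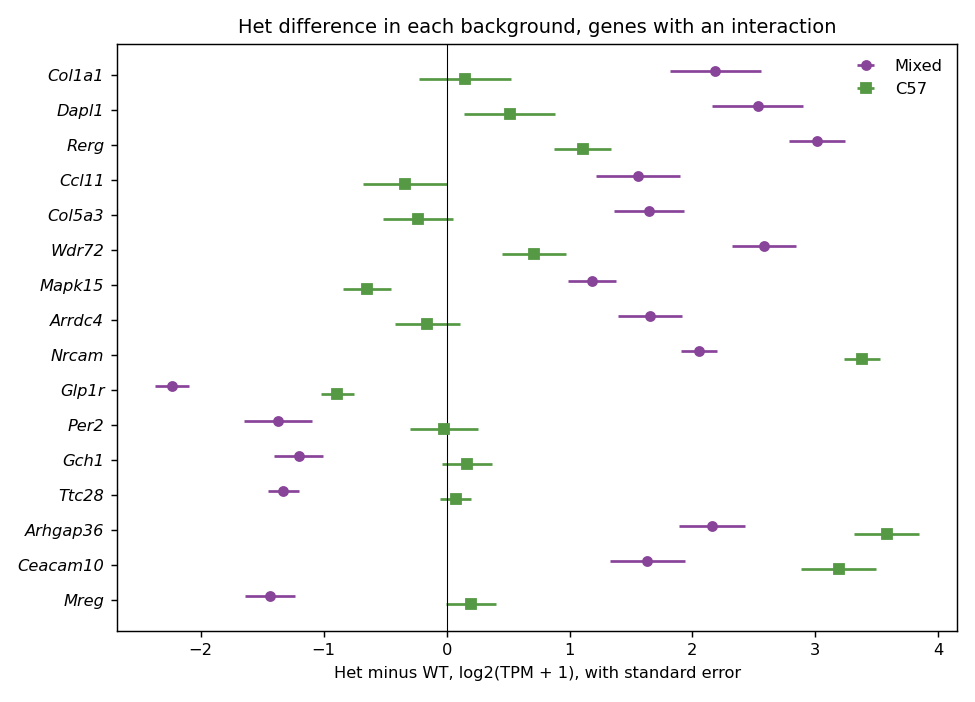
Het minus WT difference in log2(TPM + 1) with its standard error (x axis) in Mixed (purple circles) and C57 (green squares) for 16 genes with an interaction at adjusted p under 0.05, ordered by the interaction. Ccl11, Col5a3 and Arrdc4 lie right of 0 in Mixed and left of it in C57, while Ceacam10, Arhgap36 and Nrcam rose in both and further in C57.

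Some genes differed strongly among mice of one genotype. Ccl11, an eosinophil chemokine, reached 20.3 TPM in Het replicate 5 and lowest 2.02, median 4.38, highest 20.3 TPM over the 6. WT replicate 5 lay with the Het libraries for a set of genes that the other 4 WT libraries held high. Ppm1n, a protein phosphatase, had 25.03, 61.8, 26.8, 17.9 and 1.22 TPM in WT and 0.855, 1.15, 1.78, 1.26, 0.787 and 1.55 TPM in Het. Myl7, a myosin light chain, had 35.5, 93.7, 79.1, 129 and 7.03 TPM in WT and 14.2, 11.2, 17.9, 11.3, 6.96 and 8.75 TPM in Het. Krt8, with 641, 921, 1258, 1097 and 329 TPM in WT and in Het lowest 357, median 376, highest 435 TPM, went the same way. Among the 7395 called genes, 659 overlapped only through WT replicate 5, 462 of them lower in Het, and 589 only through Het replicate 3, 524 of them higher. The next was WT replicate 1 with 486.

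**Figure D5:**
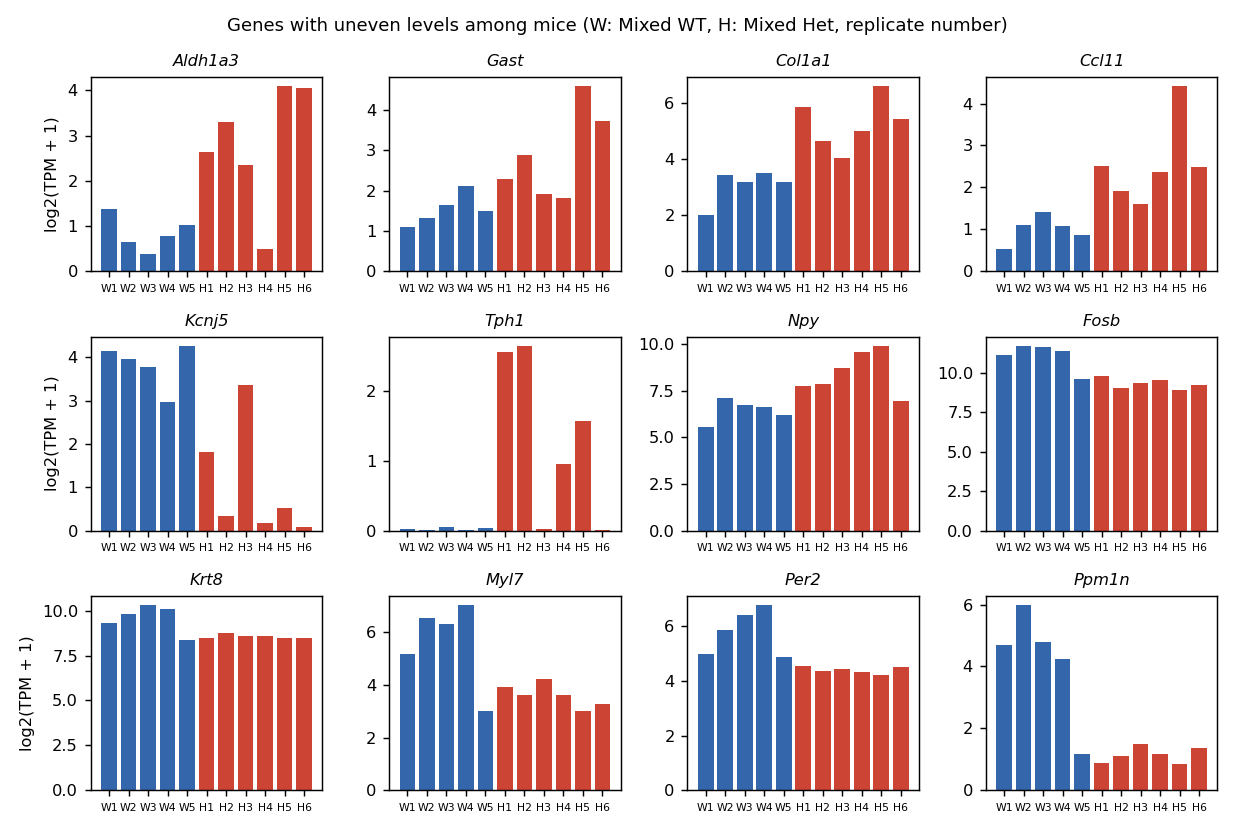
Level of 12 genes, log2(TPM + 1) on the y axis of each panel, in each Mixed WT (W1 to W5, blue) and Mixed Het (H1 to H6, red) library, with 1 bar per mouse. Aldh1a3 is low in H4, Kcnj5 is high in H3, Tph1 is highest in H1 and H2, and Fosb, Krt8, Myl7, Per2 and Ppm1n are lower in W5 than in W1 to W4.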

How the data were processed

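The authors deposited 1 table of TPM for 57010 genes in 22 libraries, per the file headers, and 0 value columns were left unused. The submitters' processing notes name STAR 2.7.10b, MultiQC 1.7 and build mm39, and the counting tool and annotation are not given in the sources used here. Columns were matched to mice by their names. Replicate numbers follow accession order and only name a mouse. For the 147 symbols on more than 1 row, the row with the highest mean was used. Every column summed to 1000000, so depth is unknown, and the 11 mice limit the precision.

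A gene was tested where 5 or more of the 22 libraries reached 1 TPM. Fold changes are on the log2(TPM + 1) scale, where those of low genes come out too small. limma 3.58.1 in R 4.3.3 fitted the 4 group means over all 22 libraries (eBayes with trend), and every adjusted p for a gene is from it. It gave Het against WT in each background and the difference of those differences, the interaction. Shares of TPM were compared by exact permutation tests. The fit was tested on simulated data.

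The named genes were drawn from those admitted by a rule: Mafa, the 12 largest called changes each way (groups apart, mean of at least 5 TPM in the higher group, established symbol), the first 3 and up to 5 called members each way of each list, the 8 largest interactions each way, the 8 with the widest spread in each group, and the 8 with the largest TPM difference each way. Promoter genes, and genes named for a single library, come from these. Not all of them are named, and some are not reported here. The members and lists were chosen with earlier results of these data known. Alternatives were another pseudocount (0.1), other filters, 3 other scalings, the 11 Mixed libraries alone, no trend, sample weights, acinar or mesenchymal scores as covariates, a threshold of 0.01, and each mouse left out in turn.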

Additional observations from a re-analysis of the deposited data

Results flagged for a closer look

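Among the 149 genes named, each checked in 2 groups, 21 of 298 groups held a library whose gap to its nearest neighbour was large for the range of its group. Chance gives about 1 in 20, so most of the 21 could arise by chance. The genes were chosen from these data, some for wide spread, so that rate is only a guide. Het replicate 4 stood highest for Slc2a2 (277 TPM), Trpm5 (15.5 TPM), Cib3 (4.83 TPM), Sytl4 (197 TPM) and mt-Nd1 (6323 TPM), and lowest for Serpina7 (6.89 TPM) and Foxm1 (1.96 TPM). Het replicate 3 stood lowest for Sst (14191 TPM) and Hhex (10.9 TPM), both delta cell genes. The remaining Het libraries that stood apart were replicate 5 for Ccl11 (20.3 TPM), replicate 6 for Pcsk1 (722 TPM) and replicate 1 for Cpe (4804 TPM). WT replicate 5 stood lowest for Fosb (785 TPM), Cdkn1a (24.1 TPM) and Insig1 (99.9 TPM). WT replicate 4 stood lowest for Iapp (22000.1 TPM), and WT replicate 3 for Gc (47.9 TPM) and Arrdc4 (3.84 TPM). WT replicate 2 stood lowest for Meltf (0.801 TPM) and highest for Rbp4 (256 TPM). WT replicate 1 stood lowest for Col1a1 (3.02 TPM).

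The Het difference depended on background (limma interaction, adjusted p under 0.05) for 48 of the named genes. Some of the named genes were admitted for a large interaction, so this count is partly set by that choice. For that reason it cannot be compared with the 7.36% of all genes tested that had an interaction. The values here are the Mixed minus the C57 difference on the log2 scale. This difference was positive for 29. Matrix and mesenchymal genes were Col1a1 (2.04), Col5a3 (1.88), Col6a1 (1.63), Col3a1 (1.61), Col1a2 (1.45), Mmp2 (1.54) and Timp2 (0.72). Immune, antigen and interferon genes were Ccl11 (1.896), Cd68 (1.18), H2-Ab1 (1.15), C1qc (1.06), Bst2 (0.87), Cd74 (0.86) and Adgre1 (0.69). Alpha and delta cell genes were Irx1 (1.24), Rbp4 (0.998), Ttr (0.93) and Gc (0.88). The others were Aldh1a3 (1.9998), Rerg (1.905), Wdr72 (1.87), Arrdc4 (1.81), Cryba2 (1.58), Txnip (1.52), Igfbpl1 (1.49), C8b (1.205), Serpina7 (1.199), Mt3 (1.19) and Gpr119 (0.91).

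The Mixed minus the C57 difference was negative for 19. Beta cell genes of glucose entry, receptors, channels and granules were Kcnj5 (-2.94), Glp1r (-1.35), Ucn3 (-1.18), Trpm5 (-1.099), Slc2a2 (-1.01), Pcx (-0.83), Slc30a8 (-0.79) and Sytl4 (-0.76). Sterol genes were Insig1 (-0.82), Msmo1 (-0.75) and Srebf2 (-0.62). The others were Mreg (-1.64), Ceacam10 (-1.56), Arhgap36 (-1.42), Ttc28 (-1.403), Ddit3 (-1.36), Per2 (-1.35), Mcm4 (-1.09) and Nrcam (-1.33).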

How the results depend on the processing

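Mafa and the insulin and glucagon shares kept their direction and side of the threshold under each alternative run for them. Genes called in Mixed fell to 4859 (3346 higher) with the mesenchymal score as a covariate, under which 24 of 142 named called genes lost their call, against at most 7 under any other alternative. Lower calls were 1382 at a mean TPM of at least 5, 3745 with median-of-ratios scaling, 3492 with a total without the 13 most abundant genes and 1374 at a threshold of 0.01. Quantile normalization gave 4221 higher and 3338 lower calls. Calls of at least 1 log2 unit were 1756 (963 higher, 793 lower) with a pseudocount of 0.1 and 581 (309 and 272) at a mean TPM of at least 5, with 820 lower under the total without the most abundant genes. Interaction calls were 714 without a filter, 2628 with sample weights, 24 with the mesenchymal score and 245 at a threshold of 0.01, and leaving out 1 mouse gave 771 (without Het replicate 5) to 1688 (without WT replicate 5). The cause of these shifts was not tested.

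List medians near 0 changed sign. Ion channels gave -0.044 with median-of-ratios, -0.026 with quantile and -0.037 with the reduced total, and receptors -0.050, -0.0066 and -0.060, with -0.027 at a mean TPM of at least 5. At that filter glucose-responsive genes gave -0.14, proliferation 0.13 and interferon genes -0.068. With the mesenchymal score, exocytosis gave 0.043, monoamines 0.13, interferon genes -0.071 and Cdkn2a -0.036. Monoamines gave 0.11 without a filter. Leaving out 1 mouse gave exocytosis medians of -0.090 to 0.0073, with the sign turned without WT replicate 1. For monoamines it gave -0.090 to 0.034, turned without WT replicate 1 or 5, and for endothelial markers -0.056 to 0.039, turned without WT replicate 1 or 2 or Het replicate 3. Quantile normalization gave -0.026 for ER genes and -0.76 for Iapp, and made Ins2 equal in every library.

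No paired analysis was possible because the labels carry no replicate numbers and tie no WT mouse to a Het mouse. Depth is not recorded in TPM, so detection limits of low genes are unknown. The limma p-values set a group difference against the spread between mice within groups, estimated over all 22 libraries. The permutation p-values compare the groups over splits of the Mixed mice alone. Any reads shared by genes of similar sequence, such as Ins1 and Ins2, could not be told apart.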
